A study of Caenorhabditis elegans with 14 samples.

Results

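The 106 piRNAs described here were the most reduced of the well-counted piRNAs in small RNA libraries of Caenorhabditis elegans after RNA interference (RNAi) against snpc-4. They were selected on the measured ratio itself. A piRNA was taken when its counts averaged at least 10 over both libraries and its abundance under snpc-4 RNAi, in RPM (counts scaled to the library total), was at most 0.35 times that under control RNAi. Of 15366 listed piRNAs, 560 had such a mean. The 10 most abundant piRNAs, the loci of clones Y105C5A, Y105C5B, Y73F8A, Y57G11A, Y57G11B and Y57G11C, and 4 single loci were set aside, which left 342 that could be taken. The 106 taken are 31% of these 342. Among all 560 the same limit was met by 30.9%, and among 549 counted transcripts of other classes by 1.09%. Because the ratio chose the piRNAs, these shares and the ratios below describe the selection and test nothing.

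piRNAs are small RNAs of the germline that bind a PIWI-class Argonaute protein, PRG-1 in worms, and guide the silencing of foreign and repetitive sequences. In worms they are called 21U-RNAs for their length and their first base, and a very large number of tiny genes, each with its own promoter, make them. Most of these genes are gathered in 2 regions of chromosome IV, here called the left and right domain. SNPC-4, formerly GEI-11, is a DNA-binding subunit of the worm SNAP complex, known for its role at genes of small nuclear RNAs, and it also occupies the piRNA domains.

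Each group was 1 library of small RNA from whole young adults of the wild-type strain N2. The control animals ate bacteria carrying the empty vector L4440, and the others ate bacteria making double-stranded snpc-4 RNA. The labels give both L1 and L2 as the larval stage at which feeding began, and do not say how many animals were pooled. Of the 14 samples of the series, the 12 from chromatin immunoprecipitation were not analysed here. With 1 library per group there is no replicate check and no test, so each comparison is between these 2 libraries. Ratios carry exact 95% intervals that cover counting error only, and these may be too narrow, because without molecular identifiers copies made by PCR are counted as separate reads. The libraries hold 956653 and 1074622 listed counts. RPM rests on larger totals, which were worked out from the deposited counts and RPM values as 20413480 and 20875010. With these, 1 read corresponds to 0.0490 RPM (control) or 0.0479 RPM (snpc-4). The snpc-4 mRNA was not measured in these tables.

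Together, the 106 piRNAs were about 4 times lower in the snpc-4 library. They summed to 7893 counts (387 RPM) under control RNAi and 2073 counts (99.3 RPM) under snpc-4 RNAi, a ratio of 0.257 (0.245 to 0.270). The 236 other counted piRNAs that could have been taken had 13211 and 7940 counts, or a ratio of 0.588 (0.572 to 0.604), and 194 of them were below 1. The selected piRNAs made up 12.2% of all piRNA counts under control RNAi and 6.46% under snpc-4 RNAi. In bulk RNA of whole animals, fewer germ cells and less piRNA per germ cell cannot be told apart. The microRNAs mir-35 to mir-42, which mark oocytes and embryos, were also lower, with 54 counts (2.65 RPM) and 16 counts (0.766 RPM), a ratio of 0.290 (0.155 to 0.514). Of these 8 microRNAs, 7 were lower and mir-41 had 0 counts in both libraries. The part of oocyte or embryo content in the piRNA values was not tested. The muscle microRNA mir-1 had a ratio of 1.31 (1.30 to 1.32), and no read was listed for the neuronal microRNAs mir-124 and lsy-6.

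Other classes of small RNA had ratios much nearer to 1, or above it. All microRNAs had a ratio of 1.15 (1.15 to 1.15), tRNAs 1.08 (1.07 to 1.09) and snoRNAs 0.910 (0.889 to 0.931). The snRNA class, which includes the spliced leaders, had a ratio of 1.64 (1.58 to 1.70).

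**Figure D1:**
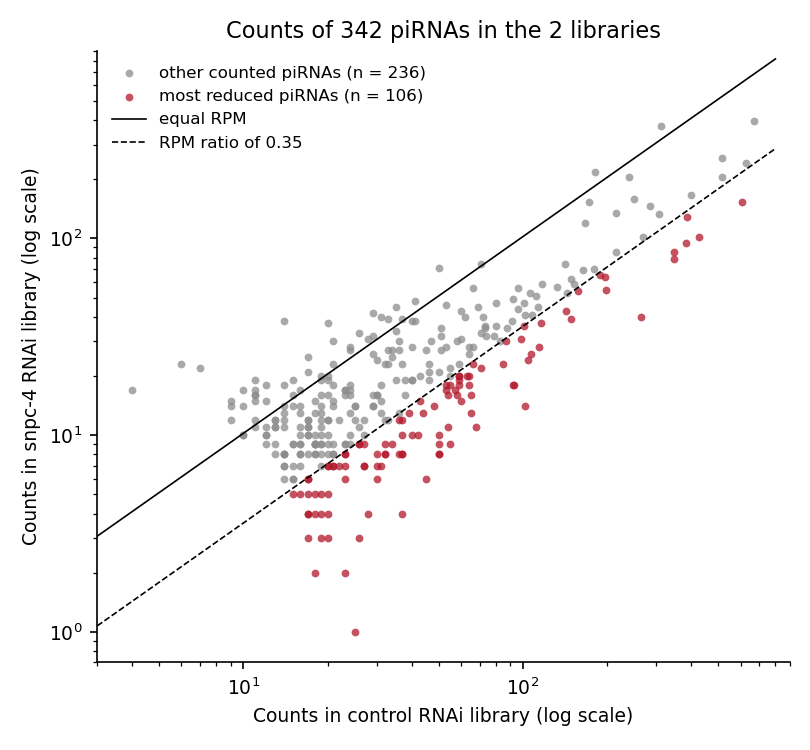
Counts of the 342 piRNAs that could be taken, with the control library on the horizontal axis and the snpc-4 library on the vertical axis, both on log scales. Each point is 1 piRNA; the 106 most reduced (red) lie below the dashed line of a ratio of 0.35 by construction, and the 236 others (grey) reach from 0.353 to 4.16.

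Abundance among the selected piRNAs was uneven. Their counts ran from 15 to 606 in the control library, with a median of 42.5, and from 1 to 153 in the snpc-4 library, with a median of 10. The 10 most abundant held 42.3% of the control counts of all 106. Without these 10 the ratio was 0.259 (0.243 to 0.276). As each selected piRNA is within the limit, any part of the group is too, so this value does not test the reduction. Of the 106, 24 averaged at least 50 counts and 11 at least 100. Reduced piRNAs were found at every level of abundance. Of the counted piRNAs that could be taken, they made up 39 of 153 with means from 10 to below 20, or 25.5%. The share was 37.4% of 115 with means from 20 to below 50, 13 of 42 from 50 to below 100, and 34.4% of 32 at 100 or above.

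21ur-2935 (B0350.6) was the most abundant, with 606 counts under control RNAi and 153 under snpc-4 RNAi, or 29.7 and 7.33 RPM, a ratio of 0.247 (0.205 to 0.295). It is followed by 21ur-1779 (C06E7.33), with 426 and 102 counts and a ratio of 0.234 (0.187 to 0.291). Both lie in the left domain, as do 4 of the next 5. Of these 4, 21ur-1392 (Y4C6A.17) had 383 and 95 counts, 21ur-6626 (C09B9.75) had 347 and 85, and 21ur-4658 (C10G6.14) had 347 and 79. Their ratios, 0.243, 0.240 and 0.223, differed by less than their counting intervals. 21ur-3078 (H32C10.22) stood lower, with 264 and 40 counts and a ratio of 0.148 (0.104 to 0.207), an interval that overlaps that of 21ur-2935 only at its upper edge.

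The abundant piRNAs of the right domain lay closer to the limit. 21ur-5648 (Y64G10A.173), the most abundant of them, had 386 and 129 counts, a ratio of 0.327 (0.266 to 0.400). 21ur-4252 (T23G4.52) had 196 and 64 counts, a ratio of 0.319, and 21ur-1919 (Y7A9A.7) had 188 and 65, a ratio of 0.338. 21ur-15147 (Y43D4A.131) had 157 and 54 counts, a ratio of 0.336. Somewhat lower were 21ur-3184 (Y116A8C.68), with 198 and 55 counts and a ratio of 0.272 (0.198 to 0.368), and 21ur-5432 (Y37A1B.58), with 149 and 39 and a ratio of 0.256 (0.175 to 0.366). The interval of the ratio ended below 0.5 for each of these 12 most abundant piRNAs, which follows from the limit and their high counts.

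**Figure D2:**
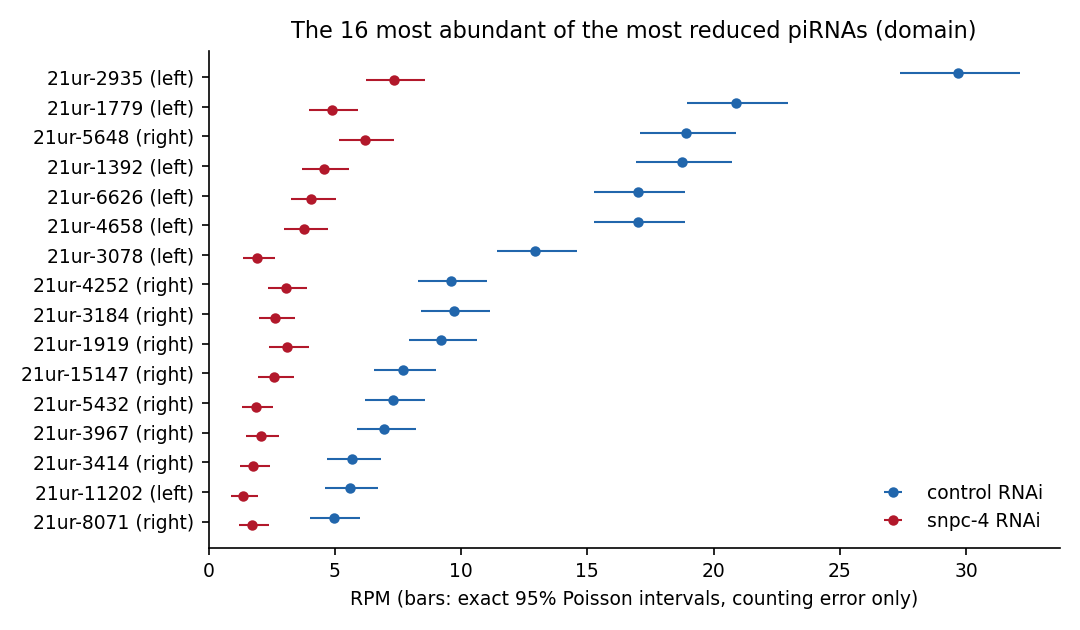
RPM of the 16 most abundant selected piRNAs in the control (blue) and snpc-4 (red) libraries, 1 library each, with exact 95% Poisson intervals for counting error. The intervals of the 2 libraries do not overlap for any of the 16, and 21ur-2935 is at 29.7 and 7.33 RPM.

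The lowest ratios belonged mostly to piRNAs with few reads. 21ur-3735 (F38C2.28) had 25 counts under control RNAi and 1 under snpc-4 RNAi, a ratio of 0.0391 with a wide interval (0.000953 to 0.239). 21ur-3360 (Y67A10A.29) had 23 and 2 counts, 21ur-8114 (C24D10.41) 37 and 4, and 21ur-6183 (Y40H7A.214) 18 and 2. 21ur-7233 (H16O14.41) followed with 26 and 3. These 5 ratios lie between 0.0391 and 0.113, and their order is not resolved at this depth. Better counted were 21ur-761 (Y67A10A.112), with 45 and 6 counts and a ratio of 0.130 (0.0455 to 0.307), and 21ur-8984 (Y9C9A.88), with 102 and 14 and a ratio of 0.134 (0.0709 to 0.236). 21ur-3019 (Y67A10A.132) had 28 and 4 counts, a ratio of 0.140. None of the 106 was at 0 in the snpc-4 library, and 7 had 3 counts or fewer there. The lowest means were those of 21ur-8242 (Y116A8C.356), with 17 and 3 counts, 21ur-6183, 21ur-3131 (F44E8.6), with 15 and 5, and, tied after these, 21ur-3864 (AC7.17) and 21ur-2243 (Y67A10A.136), each with 17 and 4, and 21ur-8602 (C01G6.11), with 16 and 5.

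The limit of 0.35 cuts through a continuous range. Just inside it were 21ur-8071 (F55B11.120), with 101 and 36 counts and a ratio of 0.349, and 21ur-527 (Y37A1A.5) and 21ur-1794 (T27E7.33), each with 17 and 6 counts and a ratio of 0.345. Just outside were 21ur-6944 (C08F11.111), with 36 and 13 counts and a ratio of 0.353, 21ur-3733 (C08F11.33), with 83 and 30, and 21ur-4429 (M199.51), with 33 and 12. The ratio of the 106 had a median of 0.258 and quartiles of 0.213 and 0.317. The counting interval of the ratio lay below 1 for all 106, which the minimum mean and the limit bring about. It lay at or below 0.5 for 49 of them and wholly at or below 0.35 for 17. Conversely, 136 of the 236 others had an interval that reached down to 0.35 or lower. At this depth, most of the selected piRNAs are therefore not separable one by one from those just outside the limit.

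By position, the selected piRNAs were more frequent among counted piRNAs of the left domain of chromosome IV than of the right. Counted piRNAs in this paragraph are those that could be taken. Of counted piRNAs that were not selected, setting loci aside left all 34 in the left domain but 187 of 401 in the right. The left domain, taken as 4 to 7 Mb, held 32 of 66 counted piRNAs, or 48.5% (exact interval 36.0% to 61.1%). The right domain, taken as everything beyond 13 Mb, held 72 of 259, or 27.8% (22.4% to 33.7%). Between the domains, 0 of 8 counted piRNAs were taken, which with so few allows a share of up to 36.9%. The selected left-domain piRNAs had 3551 and 805 counts, a ratio of 0.222 (0.205 to 0.239). Those of the right had 4295 and 1256 counts, a ratio of 0.286 (0.268 to 0.305). A ratio of 0.25 or less was found for 24 of the 32 in the left domain and 23 of the 72 in the right. As the ratio chose these piRNAs, their values add no support for a difference between the domains. The counted piRNAs not selected, each above the limit by the rule, were not lower in the left domain. Their ratios were 0.59 (0.54 to 0.65) in the left and 0.58 (0.56 to 0.59) in the right. Counted piRNAs that could be taken, selected or not, had 4815 and 1574 counts in the left domain, a ratio of 0.320 (0.302 to 0.338). In the right domain they had 15966 and 8131, a ratio of 0.498 (0.485 to 0.512). Their median ratios were 0.376 and 0.465. Median abundance of the selected piRNAs differed little, with mean counts of 29.5 and 25.8. Under a minimum mean of 50 counts the shares were 64.3% of 14 and 25.4% of 59.

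Among piRNAs too rare to be selected, the left domain again had the lower ratio. The ratios of the domains lay closer together than those of all counted piRNAs that could be taken. The 2761 left-domain piRNAs under the minimum had sums of 1657 and 904, a ratio of 0.534 (0.491 to 0.579). The 11101 of the right domain had 6850 and 4073 counts, a ratio of 0.582 (0.559 to 0.605), with an overlapping interval.

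Outside chromosome IV, 2 of the 9 counted piRNAs that could be taken were selected. 21ur-12047 (T04D1.6), on chromosome I, had 31 and 7 counts, a ratio of 0.221 (0.0821 to 0.511). 21ur-8602 (C01G6.11), on chromosome II, had 16 and 5 counts and a ratio of 0.306 (0.0876 to 0.873). The 7 others off chromosome IV together had 124 and 148 counts, a ratio of 1.17 (0.913 to 1.49).

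**Figure D3:**
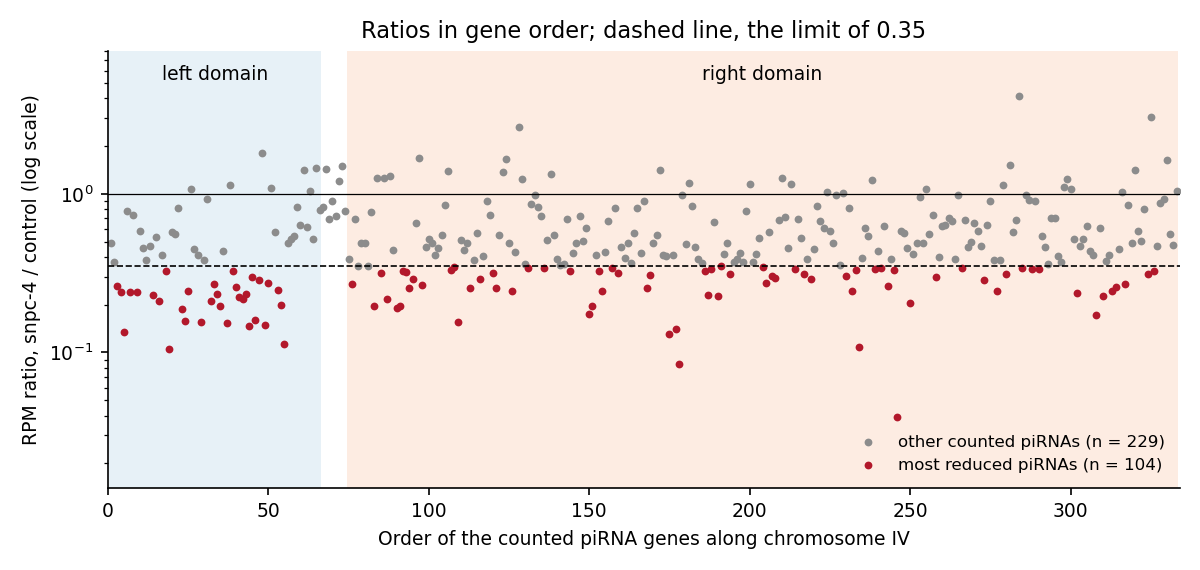
Ratio of RPM in the snpc-4 over the control library, on a log scale, for the 333 counted piRNA genes that could be taken, in their order along chromosome IV, with the domains shaded. The 104 selected piRNAs (red) lie below the limit of 0.35 by construction. In the left domain they are dense and stop before its last 11 counted piRNAs, while in the right domain they are spread along the order shown. This order leaves out the set-aside loci and shows no distances: up to 3948 listed piRNAs lie between consecutive selected ones.

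Reduced loci were often next to each other in the left domain, where they are also denser, and less often in the right. Neighbours were read from gene order, counting only the piRNAs that could be taken. In the left domain, 26 of 32 selected piRNAs (81.3%, 63.6% to 92.8%) had another directly beside them, against 19 of 34 others (55.9%, 37.9% to 72.8%), and these intervals overlap. In the right domain the shares were nearly equal, 35 of 72 (48.6%, 36.7% to 60.7%) and 87 of 187 (46.5%, 39.2% to 54.0%). Over all positions, 61 of 106 (57.5%, 47.6% to 67.1%) had such a neighbour, against 106 of 236 others (44.9%, 38.5% to 51.5%). The 61 formed 21 unbroken runs, 12 of them pairs, and 45 piRNAs stood alone.

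The longest run held 9 piRNAs of the left domain, from 4 clones. In order, these were 21ur-3131, 21ur-5028 (C31H1.20), 21ur-4658, 21ur-3003 (C06E7.17), 21ur-1779, 21ur-5016 (C06E7.14), 21ur-5745 (C06E7.59), 21ur-2191 (C06E7.40) and 21ur-3585 (C06E7.21). Their summed counts were 994 and 234, a ratio of 0.230 (0.199 to 0.266), and their single ratios ran from 0.147 to 0.326. Abundance varied along the run: 21ur-1779 had 426 and 102 counts, while 21ur-5016, the next listed piRNA gene, had 20 and 3. Others of the run were 21ur-5745 with 59 and 18, 21ur-2191 with 55 and 9, 21ur-3003 with 36 and 8, 21ur-5028 with 19 and 5, and 21ur-3585 with 17 and 5.

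From the start of that run to the last selected piRNA of the left domain, 21ur-7233, 14 of 17 counted piRNAs were taken. The 3 exceptions, which were named because of their values, were 21ur-15611 (H04M03.70), with 20 and 37 counts and a ratio of 1.81, 21ur-7477 (K02B2.25), with 28 and 31 and a ratio of 1.08, and 21ur-3689 (B0350.21), with 17 and 10. Both ends of this stretch are selected piRNAs, so its share describes the selection. The 11 counted piRNAs of the left domain beyond 21ur-7233 are above the limit by definition, and had ratios between 0.489 and 1.47, with a median of 0.633. This run of piRNAs above the limit went on through the gap between the domains and reached 20 piRNAs from 18 clones, with a median ratio of 0.786. The rare piRNAs, which the selection did not use, had overlapping intervals on the 2 sides of that point: those from the first to the last selected left-domain piRNA had a ratio of 0.536 (0.487 to 0.591), and those beyond it 0.508 (0.428 to 0.602).

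The second longest run was made of 6 piRNAs of the right domain, all from clone C47A4. It held 21ur-3801 (C47A4.59), with 92 and 18 counts and a ratio of 0.191 (0.109 to 0.319), 21ur-7631 (C47A4.117), with 20 and 4, and 21ur-6919 (C47A4.77), with 36 and 12. It also held 21ur-5630 (C47A4.124), with 55 and 18, 21ur-1366 (C47A4.68), with 27 and 7, and 21ur-3032 (C47A4.12), with 54 and 16. Together they had 284 and 75 counts, a ratio of 0.258 (0.198 to 0.334). Next came a run of 4 in the left domain, with 21ur-6774 (F26D12.53; 37 and 8 counts), 21ur-8348 (F26D12.87; 18 and 5), 21ur-6751 (C39H7.55; 42 and 10) and 21ur-8365 (C39H7.33; 50 and 10). Its summed ratio was 0.220 (0.146 to 0.322).

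Within runs, other listed piRNA genes usually lay between the selected ones, nearly all of them with few or no reads. The 40 steps from one selected piRNA to the next of its run passed a median of 20.5 listed piRNA genes, from 0 to 88, and 5 of them passed at most 1. Over all 103 steps on a chromosome, those between runs included, the median was 50. The run of 9 spans 203 other listed piRNAs, of which 161 had 0 counts in both libraries. The rest brought their sum to 111 and 65 counts, a ratio of 0.573 (0.415 to 0.785). In the run of 6, the 72 intervening piRNAs had 49 and 25 counts, a ratio of 0.499 (0.295 to 0.824). In the run of 4, 102 had 73 and 36, a ratio of 0.482 (0.314 to 0.728). The 6 runs of 3 had ratios from 0.489 to 0.978 for such rare intervening piRNAs, on 11 to 116 control counts, and for 4 of these runs the interval reached above 1.

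One run of 3, in clone Y40H7A, also spans 1 abundant piRNA that had been set aside, with 2215 and 779 counts and a ratio of 0.344 (0.317 to 0.373). With it, the sums over the 75 intervening piRNAs were 2230 and 791, a ratio of 0.347 (0.319 to 0.376). Since the selected piRNAs of a run are at or below 0.35 by the rule, their ratios and those of the piRNAs between them are not compared.

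Rare piRNAs beside reduced loci differed from those elsewhere by less than counting error. The 5 nearest piRNAs under the minimum on either side of a selected piRNA, and of no other counted one, had 616 and 352 counts, a ratio of 0.559 (0.489 to 0.638). Those beside the other counted piRNAs alone had 1323 and 809, a ratio of 0.598 (0.547 to 0.653). These intervals overlap. In the left domain the 2 ratios were 0.61 (0.49 to 0.76) and 0.51 (0.40 to 0.66). In the right they stood the other way, 0.50 (0.42 to 0.60) and 0.61 (0.55 to 0.67). The 241 rare piRNAs that lay beside both kinds had 179 and 82 counts, a ratio of 0.448 (0.341 to 0.585).

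**Figure D4:**
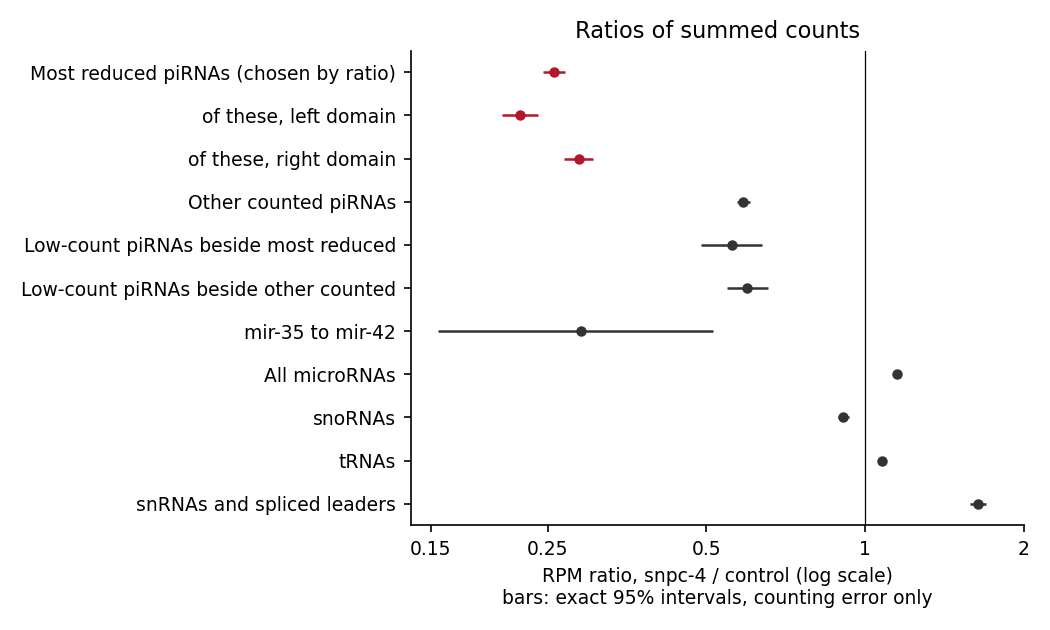
Ratio of summed RPM, snpc-4 over control library, on a log scale, for the selected piRNAs (red, chosen by this ratio), other piRNA groups and other small RNAs (black), with exact 95% intervals for counting error. Rare piRNAs beside selected loci are at 0.559 and those beside other counted loci at 0.598, with overlapping intervals.

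By clone, the unit of the transcript names, the selected piRNAs were scattered but not evenly. Counted piRNAs that could be taken came from 97 clones, and 50 of these held at least 1 selected piRNA. A single one was found in 28 clones, and 6 clones with at least 6 each held 39 of the 106. In C06E7 all 6 counted piRNAs were taken, with clone sums of 613 and 145 counts. In C47A4, 6 of 7 were taken (85.7%, 42.1% to 99.6%), with sums of 364 and 111. C06E7 was the only one of the 38 clones with at least 3 counted piRNAs in which all were taken, while 10 of these clones, with 38 counted piRNAs, had none taken. In T06A10, named after its values were seen, the 3 counted piRNAs had ratios between 1.07 and 1.24.

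Large clones of the right domain were mixed. Y64G10A held the most, 8 of 24 counted (33.3%, 15.6% to 55.3%), led by 21ur-5648 and by 21ur-5695 (Y64G10A.262), with 98 and 31 counts. Y51H4A held 7 of 35 (20.0%, 8.44% to 36.9%), led by 21ur-4111 (Y51H4A.160), with 53 and 17 counts, and 21ur-3483 (Y51H4A.400), with 48 and 14. Ratios of counted piRNAs in Y51H4A ran from 0.244 to 4.16. Y116A8C held 6 of 22 (27.3%), led by 21ur-3184 and 21ur-3545 (Y116A8C.60), with 107 and 26 counts. Y67A10A held 6 of 18 (33.3%), led by 21ur-5345 (Y67A10A.18), with 87 and 30, and 21ur-761, and its ratios ran from 0.0850 to 1.42.

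**Figure D5:**
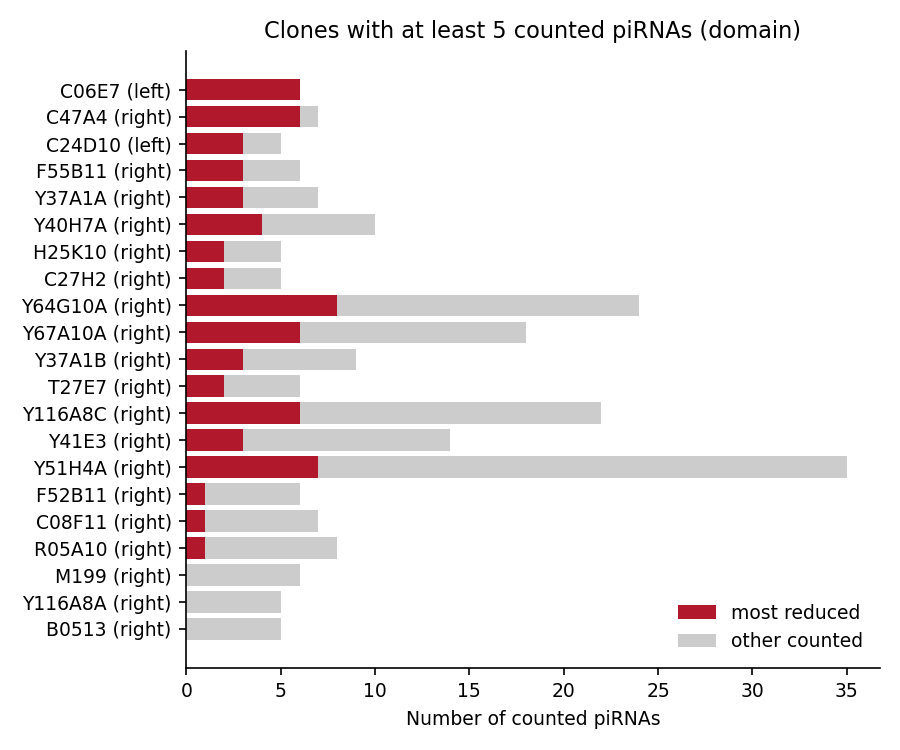
Number of counted piRNAs that were selected (red) or not (grey) in each of the 21 clones with at least 5 counted piRNAs, ordered by the share selected, with the domain in parentheses. C06E7, with 6 of 6, and C47A4, with 6 of 7, stand at the top, and 3 clones have none.

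About as many selected piRNA genes lay inside protein-coding genes as outside them. Their annotated spans fell within that of a protein-coding gene for 51 of 106 (48.1%, 38.3% to 58.0%), against 89 of 236 others (37.7%, 31.5% to 44.2%) and 37.7% of 14803 piRNAs under the minimum. Exons and introns were not distinguished, and the first 2 intervals overlap. In the left domain the shares were 56.3% and 52.9%, and in the right 44.4% and 34.8%. Most host genes held 1 selected piRNA. C06E7.4 held 21ur-1779, 21ur-5016 and 21ur-5745, with no other counted piRNA. The gene sorb-1, which encodes an adaptor protein of the muscle attachment structures, held 21ur-1366, 21ur-3032 and 21ur-2584 together with 2 counted piRNAs that were not taken. The potassium channel gene egl-23 held 21ur-4517 and 21ur-5432 together with 1 that was not. The forkhead factor gene fkh-7 held the neighbours 21ur-6774 and 21ur-8348, also with 1 that was not.

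All 106 were placed by the reference gene table and are annotated at 21 nucleotides. The spans of 6 overlap those of other listed piRNAs, and these partners all had 0 counts in both libraries. No source used here says how the authors' counting treated reads that match several places, so the count of a piRNA that shares its sequence with another is uncertain.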

How the data were processed

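Small RNA libraries of 2 samples were used, 1 per group. Per the labels' protocols, the kit was Illumina's small RNA v1.5 and the sequenced RNAs were 22 to 30 nucleotides long, a range that starts just above the annotated piRNA length of 21. BWA is named in the submitters' processing notes. The version, genome build and counter are not given in the sources used. The deposited tables give a read count per transcript and, per the file headers, a value in RPM, which equals the count divided by 1 constant per library.

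Ratios are RPM in the snpc-4 library over RPM in the control library, with no read added. Their intervals are exact conditional binomial, those of shares exact Clopper-Pearson, and those of single counts exact Poisson, all at 95%. As each group is 1 library, no test was run. Names, chromosomes and gene order were taken from RefSeq genes of assembly WBcel235, which matched 15363 of 15366 piRNAs. As the authors' build is unknown, gene coordinates are left out, and the domain borders are those of this table.

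The piRNAs selected, the lists and comparisons were chosen with earlier results of these data known. Named piRNAs are the 12 most abundant, the 8 of lowest ratio, 3 on each side of the limit, those of the 3 longest runs, the 2 most abundant of the 4 clones with most selected piRNAs, the 4 of lowest mean with ties, and those off chromosome IV. The comparisons of rare piRNAs, of name numbers, of host genes and of stretches of the left domain were added after seeing the data. Alternatives changed the minimum, the limit, the scaling and the neighbour rule. The upstream motif of piRNA genes was not analysed here. The steps were tested on simulated data. Software was Python 3.11.15 with NumPy 2.4.6, SciPy 1.17.1, pandas 2.3.3 and matplotlib 3.10.9.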

Additional observations from a re-analysis of the deposited data

How the results depend on the processing

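The number of selected piRNAs, 106, was 191, 67 and 24 with minimum means of 5, 20 and 50 counts, 48 and 193 with limits of 0.25 and 0.5, and 52 when scaled by the median ratio of counted transcripts, of which piRNAs set a large part. With 1 read added, or scaled to the listed counts, the microRNA total or the median ratio without piRNAs, it was between 92 and 136. The log2 ratio of the summed selected piRNAs, -1.96, became -2.10 by the listed counts, -2.16 by the microRNA total and -1.51 by the median ratio. Each scaling shifts every log2 ratio by the same amount, -0.14, -0.20 and 0.45. The share of selected piRNAs next to another, 57.5%, was 79.2% and 88.7% with the 2 and 3 nearest on either side and 67.2% with a minimum mean of 20 counts. A wider window can only raise this share, for selected piRNAs and others alike: the others had 67.8% and 80.9%. With the minimum mean of 20 counts the share of the others was higher too, 50.8% against 44.9% in the main setting. The share selected was higher in the left than in the right domain under all 8 alternatives tried for it, which were chosen after seeing the data, for example 36.4% against 8.88% with a limit of 0.25, and 65.2% against 57.1% with a limit of 0.5. The alternatives for the upstream motif were not run. No paired analysis was possible because each group has 1 library. Depth limits single piRNAs most: many of the listed ones have no reads, and for a count of 0 the one-sided 95% upper limit is 3 counts.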

Other observations

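The piRNAs that were set aside met the same limit about as often. Of 218 counted piRNAs in the excluded clones and loci, 67 had a ratio of at most 0.35, or 30.7% (24.7% to 37.3%). The share was 38.1% of 97 in clones Y105C5A and Y105C5B (28.5% to 48.6%), 31.9% of 69 in the Y57G11 clones (21.2% to 44.2%) and 16.7% of 42 in clone Y73F8A (6.97% to 31.4%). Of the 10 most abundant piRNAs, 2 met it.

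The share selected, and the ratio, differed with the number in the piRNA name, though the intervals of the shares overlap. Of 186 counted piRNAs named 21ur-1 to 21ur-5000, 33.3% were selected (26.6% to 40.6%), with a median ratio of 0.421. From 21ur-5001 to 21ur-10000 it was 30.7% of 127 (22.8% to 39.5%), with a median of 0.489. From 21ur-10001 on it was 5 of 29, or 17.2% (5.85% to 35.8%), with a median of 0.838, and 11 of these 29 had a ratio of 1 or more. Median mean counts of these classes were 23, 21.5 and 19. The rare piRNAs, which the selection could not take, showed the same order. Their summed ratios were 0.521 (0.494 to 0.549), 0.581 (0.548 to 0.615) and 0.749 (0.698 to 0.804), from 4135 and 2202, 3148 and 1869, and 1787 and 1369 counts. Counted piRNAs numbered from 21ur-10001 on also lay outside the domains more often than the others. Median ratios of counted piRNAs there were 0.866 between the domains and 0.827 off chromosome IV. Name number and position were not separated. The comparison by name number was chosen after seeing the data, and its cause was not tested.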
